A study of Mus musculus with 4 samples.

Results

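Motile cilia are the beating projections of ependymal cells, which line the brain ventricles beside the hippocampus, and multiple cilia are also carried by the choroid plexus epithelium. Each cilium is built on a microtubule axoneme, and its parts move by dynein arms, radial spokes and a central pair of microtubules. The genes for these parts are switched on together by the transcription factor Foxj1 and by Rfx factors, which bind a DNA element called the X-box. The genes described here are 38 listed motile cilia and ependymal genes, chosen by name. Transcripts of 36 of them were found among the 16149 genes of the deposited tables, and no level is given here for Meig1 and 1700012B09Rik.

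The series holds total RNA of the hippocampus, in 2 libraries from mice with Tas1r3 (WT-WD) and 2 from mice in which it was knocked out (KO-WD). Tas1r3 encodes a subunit of the sweet and umami taste receptors. Both genotypes ate a western diet for 18 weeks, so that every library shares the diet, and no other diet was analysed here. The labels give no age, strain or knockout construct and leave unsaid whether each library is another mouse, so the spread behind every p-value may be technical. The series title frames the comparison as one of cognitive impairment in obesity caused by diet, and the knockout is compared with the wild type on that diet.

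Values are the authors' normalized signal, in units that add up to nearly the same total in every library, summed here over the RefSeq transcripts of a gene. Estimated depth lay between 11596036 and 15959807 reads per library, and 1 read was worth between 0.187 and 0.258 units. Signal of Tas1r3 was 16.1 and 15.9 units in WT-WD against 0.887 and 1.85 units in KO-WD, as the labels call for. The summed signal of 5 neuronal markers, Snap25, Syt1, Rbfox3, Prox1 and Camk2a, was between 15309 and 16884 units. All 7 ependymal markers looked for, Foxj1, Ccdc153, Tmem212, Rsph1, Dynlrb2, Rarres2 and Cd24a, were measured in every library, and their summed signal was only 83.5 to 121.1 units. In whole hippocampal RNA, fewer cells of a type and less RNA per cell cannot be told apart.

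The X-box was looked for because it is the element these regulators bind. Promoter sequences from RefSeq (GRCm38.p6), each reaching from 250 bases before a gene's start to 50 bases after it, were matched for 33 of the 38 listed genes. The search pattern was GTNNCC followed by NGNAAC, with 0 to 3 bases between them, on both strands. It was found for 15 of the 33 genes (45.5%), Meig1 included, against 5.94% of the 27025 genes in the promoter table. The forkhead letters TGTTTAC, a form of the motif bound by the family of Foxj1, were found for 3 of the 33 (9.09%), against 4.05% of all genes. A match describes the letters only and does not show binding. The matches for 8 of the 15 genes are printed with 8 bases on either side and with the matched letters in capitals, on the strand of the gene. For Dynlrb2, Spag16 and Dnah9 the capitals read as the pattern itself, and for Cfap44, Cfap45, Dnaic1, Hydin and Zmynd10 they read as its reverse complement:
Dynlrb2, chr8:116504956-116504984, + strand: cctgcctgGTTGCCTAGCAACgggggaag
Cfap44, chr16:44394764-44394793, + strand: ggagggacGTTGCTATGGCAACcgcagtaa
Cfap45, chr1:172521103-172521132, + strand: gttcttggGTTGCTATGGTAACgcgtcagc
Dnaic1, chr4:41569767-41569795, + strand: gcctgtcgGTTGCTGGGTAACcgcgtcag
Hydin, chr8:110266948-110266977, + strand: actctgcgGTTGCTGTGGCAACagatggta
Spag16, chr1:69826859-69826888, + strand: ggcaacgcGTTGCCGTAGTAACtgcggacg
Dnah9, chr11:66168613-66168641, - strand: ttccaccaGTTTCCCAGCAACaacgacgc
Zmynd10, chr9:107547296-107547325, + strand: gctccctcGTTTCCATGGCGACgacgactc

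The members were weakly expressed in hippocampal RNA. All 36 passed the filter of at least 1 unit in at least 2 libraries. The mean over the 4 libraries ran from 1.89 units for Mlf1 to 246.5 units for Cfap126, with a median of 8.16 units, and 21 members averaged under 10 units. Between 96.6% and 99.8% of the Cfap126 signal belonged to a non-coding transcript, and the next highest member was Dnah9, at 78.1 units. The median member value rested on an estimated 36.7 reads, so counting error alone is wide. The other motile cilia genes in a longer list had a median mean of 8.12 units, against 46.4 units over all genes tested.

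**Figure D1:**
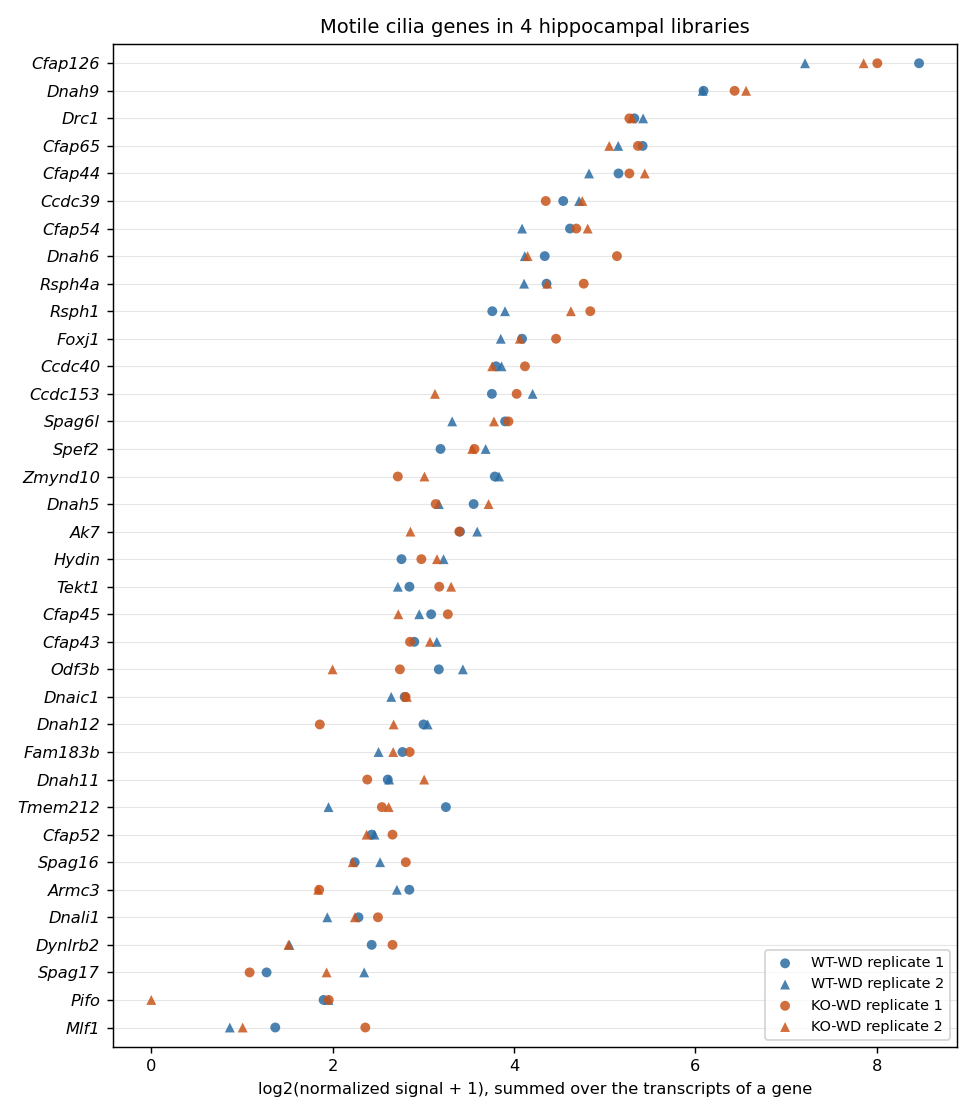
Normalized signal of the 36 motile cilia genes on a log2(value + 1) scale, 1 row per gene sorted by the mean, with 1 point per library coloured by genotype and shaped by replicate. The genotypes overlap in 23 of the 36 rows. They do not overlap in 36.1% of the rows, against 36.3% of all genes tested. Pifo is near 0 in KO-WD replicate 2.

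Per kilobase of transcript the order differed from that of the signal, which is not corrected for length. Lengths could be matched for 32 members, and not sufficiently for Cfap126, which had the most signal, Ccdc153, Dnah12 and Zmynd10. Among these 32, the radial spoke gene Rsph1 (18.1 units per kilobase, mean of the 4 libraries) and the nexin-dynein regulatory gene Drc1 (15.9) were highest. Fam183b (9.73) followed. Foxj1 reached 6.31 units per kilobase. Dnah9, second in signal, reached 5.66 units per kilobase over a transcript of 13798 bases. The central pair genes Hydin (0.457) and Spag17 (0.300) and the outer arm heavy chain Dnah11 (0.382) were the lowest of the 32.

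Between the genotypes the motile cilia genes did not separate as a group. Of the 36 members, 22 were higher and 14 lower in KO-WD (61.1% higher, against 50.1% of all genes tested). The median log2 difference was 0.09, against 0.00 over all 15708 genes tested. None passed an adjusted p of 0.05 in limma over all genes, where 10 genes (0.0637%) passed. At an unadjusted p under 0.05 there were 5 members (13.9%, against 5.28% of all genes), of which 2, Rsph1 and Dnah9, were higher (2.38% of all genes were) and 3, Zmynd10, Armc3 and Odf3b, were lower in KO-WD (2.9% of all genes were). The KO-WD libraries were both above the WT-WD ones for 7 members (19.4%, against 17.9% of all genes) and below them for 6 (16.7%, against 18.4%). With 2 libraries a genotype, an exact permutation test of a single gene cannot give a two-sided p below 0.333.

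**Figure D2:**
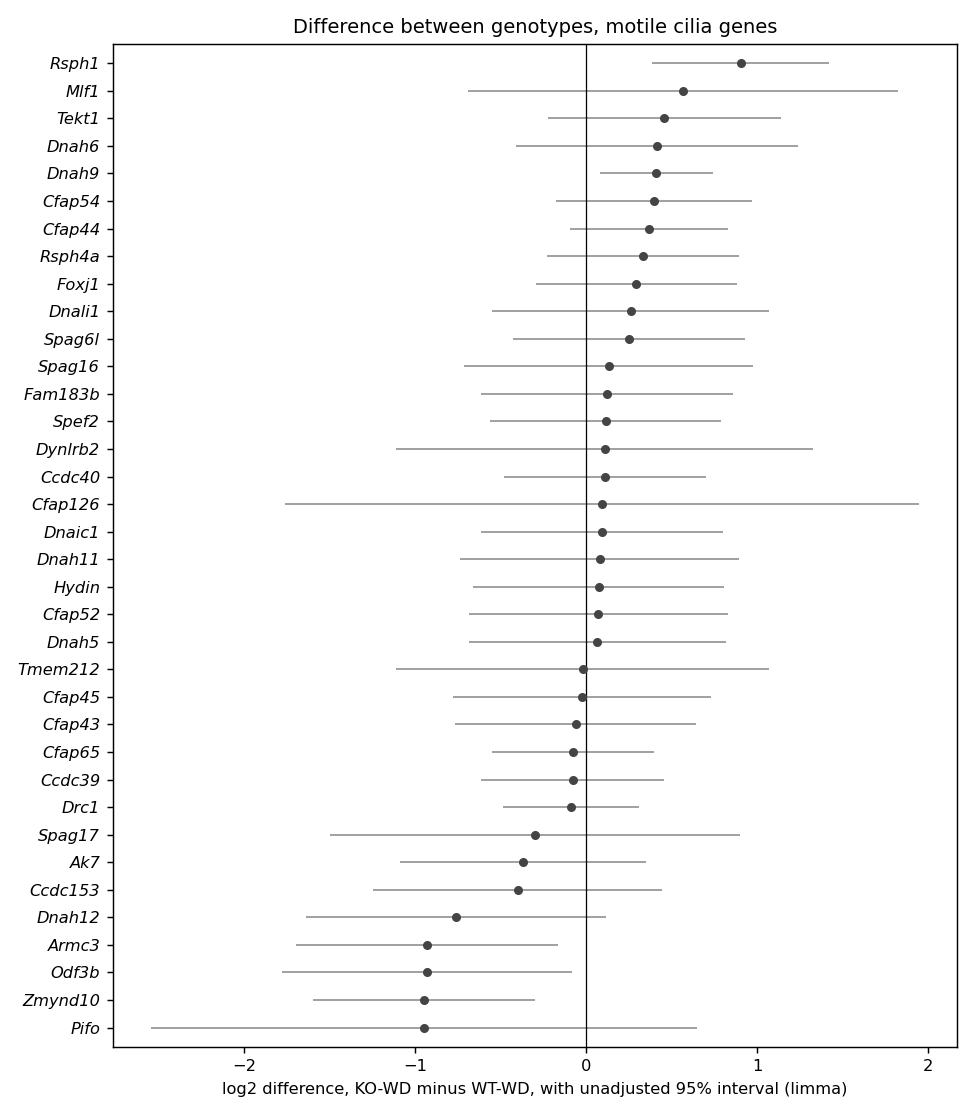
Log2 difference between KO-WD and WT-WD (2 libraries each) for each of the 36 genes, with the unadjusted 95% interval from limma as a bar. The intervals of Rsph1, Dnah9, Zmynd10, Armc3 and Odf3b exclude 0 before adjustment for 15708 tests, and no gene passes after it.

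Foxj1, the regulator of the programme (NM_008240, chromosome 11), was measured at 16.0 and 13.5 units in WT-WD and at 21.1 and 15.7 units in KO-WD. These values rest on an estimated 62 and 71.8 reads in WT-WD and 95 and 68.0 reads in KO-WD. KO-WD replicate 1 was the highest library, and the genotypes overlapped. The log2 difference was 0.29 (SE 0.25, 95% interval -0.30 to 0.88, adjusted p = 0.915 in limma).

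Of the outer dynein arm genes, the motors that drive the beat, 4 were among the members, and each had a log2 difference above 0. Of all genes tested 50.1% did. The outer arm docking gene Ttc25, outside the members, had a log2 difference of -0.83. Dnah9, a heavy chain (NM_001099633, chromosome 11), was at 67.1 and 66.6 units in WT-WD and at 85.3 and 93.3 units in KO-WD. Both KO-WD libraries were above both WT-WD libraries, the means were 66.9 ± 0.331 and 89.3 ± 5.61 units (SD, n = 2), and the log2 difference was 0.41 (SE 0.14, adjusted p = 0.892 in limma). Its promoter upstream of the start, with the X-box match in capitals, is shown because Dnah9 has the most reads of the members that have coding transcripts alone:
Dnah9, chr11:66168552-66168801, - strand, GRCm38.p6: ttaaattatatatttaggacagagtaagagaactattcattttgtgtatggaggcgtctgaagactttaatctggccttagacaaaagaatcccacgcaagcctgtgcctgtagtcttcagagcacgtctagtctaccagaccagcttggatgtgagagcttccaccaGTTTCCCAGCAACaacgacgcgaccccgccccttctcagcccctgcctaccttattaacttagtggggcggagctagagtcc
The heavy chains Dnah5 and Dnah11 and the intermediate chain Dnaic1 had log2 differences between 0.07 and 0.09 (SE 0.30 to 0.35). Dnaic1 overlaps the gene Enho in the gene table, and Dnah11 overlaps Cdca7l. The use of strand is not given, and whether overlapping genes share reads was not tested.

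Among the inner arm genes the heavy chains differed in opposite directions. Dnah6 was at 19.2 and 16.4 units in WT-WD and at 34.1 and 16.7 units in KO-WD. KO-WD replicate 1 alone was high, and without it the log2 difference of 0.41 became -0.08. Dnah12 was at 7.01 and 7.27 units in WT-WD and at 2.63 and 5.38 units in KO-WD, with no overlap (log2 difference -0.76, SE 0.37, adjusted p = 0.902 in limma). The light chain Dnali1 averaged 3.36 units in WT-WD and 4.2 units in KO-WD, and it overlaps Gnl2. Dynlrb2, a roadblock-type dynein light chain, was at 4.39 and 1.87 units in WT-WD and at 5.32 and 1.85 units in KO-WD, with overlap. Its values rest on only an estimated 17 and 10 reads in WT-WD and 24 and 8.01 reads in KO-WD.

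The radial spokes, which carry signals from the central pair to the dynein arms, included the member with the smallest p-value. Rsph1, a spoke head protein (chromosome 17), was at 12.5 and 13.9 units in WT-WD and at 27.7 and 23.7 units in KO-WD. The KO-WD libraries were the higher pair, at 1.94 times the WT-WD mean (log2 difference 0.90, SE 0.22, unadjusted p = 0.00432, adjusted p = 0.685 in limma). Leaving out each library in turn gave log2 differences between 0.80 and 1.01. The 2 transcripts in the sum of Rsph1 differed in opposite directions, by 2.29 for NM_001364916 and -1.30 for NM_025290 (log2). Rsph4a, the other spoke head gene, was at 19.5 and 16.3 units in WT-WD and at 26.3 and 19.6 units in KO-WD. The lower KO-WD library and the higher WT-WD library were nearly level (log2 difference 0.33, SE 0.24, adjusted p = 0.911 in limma). Another measured gene, Ubash3a, overlaps Rsph1 in the gene table.

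The genes that assemble and position the dynein arms did not share a direction. Zmynd10, a cytoplasmic factor for arm assembly (chromosome 9), was at 12.8 and 13.3 units in WT-WD and at 5.58 and 7.07 units in KO-WD. The WT-WD mean was 2.06 times the KO-WD mean, and the genotypes did not overlap (log2 difference -0.95, SE 0.28, unadjusted p = 0.0106, adjusted p = 0.846 in limma). Leaving out each library gave values between -1.09 and -0.80. Ccdc39, which with Ccdc40 forms the ruler that sets the spacing of arms and spokes, was at 22.3 and 25.3 units in WT-WD and at 19.4 and 26.0 units in KO-WD. Ccdc40 was at 12.9 and 13.5 units in WT-WD and at 16.4 and 12.5 units in KO-WD. The genotypes overlapped for both ruler genes, whose 95% intervals were -0.61 to 0.46 for Ccdc39 and -0.48 to 0.70 for Ccdc40. Ccdc39 overlaps Ttc14 in the gene table, and Ccdc40 overlaps Tbc1d16.

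Drc1, of the complex that links neighbouring microtubule doublets, was the steadiest of the better measured members. It was at 39.1 and 41.9 units in WT-WD and at 37.6 and 38.3 units in KO-WD. Its log2 difference was -0.09 (95% interval -0.49 to 0.31).

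For the central pair, 5 of 6 genes had a log2 difference above 0 (50.1% of all genes tested did), with a median of 0.12 and none past the threshold. Cfap54 was at 23.5 and 16.0 units in WT-WD and at 24.7 and 27.1 units in KO-WD, with the KO-WD libraries just above the others (log2 difference 0.40, SE 0.24). The projection gene Hydin averaged 7.05 ± 1.82 and 7.38 ± 0.706 units (SD, n = 2). Spag6l, Spag16, Spag17 and Spef2 had log2 differences between -0.30 and 0.25. Spag6l has a close paralogue, Spag6, so that reads could be split between them. In the gene table Spag6l also overlaps Rpl31-ps12, and Spag17 overlaps Wdr3.

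Of the other axonemal genes, Cfap126, a basal body gene also called Flattop, had the most signal of all members. It was at 352.5 and 146.9 units in WT-WD and at 256.0 and 230.5 units in KO-WD. Between 96.6% and 99.8% of this signal belonged to NR_166655, a non-coding RNA by its RefSeq prefix. The coding transcript NM_001379426 was at 1.08 and 0.334 units in WT-WD and at 8.76 and 0.753 in KO-WD. For the gene's sum the WT-WD libraries bracketed the KO-WD libraries, and the log2 difference of 0.09 became -0.54 without WT-WD replicate 2. With coding transcripts alone, at these low values, it was 1.31. Cfap44 was at 34.5 and 27.4 units in WT-WD and at 37.6 and 42.4 units in KO-WD (log2 difference 0.37, SE 0.20). Cfap65 was at 41.7 and 34.5 units in WT-WD and at 40.3 and 32.1 units in KO-WD, with overlap. Tekt1, a filament protein of the microtubule doublets, averaged 5.89 ± 0.431 and 8.46 ± 0.609 units (SD, n = 2), and its KO-WD libraries were the higher pair. Cfap43, Cfap45 and Cfap52 had log2 differences between -0.06 and 0.07.

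The remaining 8 genes of ciliated cells were mostly lower in KO-WD, 6 of 8 (50.1% of all genes tested were higher). Their median log2 difference was -0.39, and none passed the threshold. Armc3 was at 6.19 and 5.53 units in WT-WD and at 2.61 and 2.58 units in KO-WD (log2 difference -0.93, SE 0.32, adjusted p = 0.898 in limma). Odf3b was at 8.0 and 9.82 units in WT-WD and at 5.69 and 3.00 units in KO-WD (log2 difference -0.93, SE 0.36, adjusted p = 0.902). Neither gene overlapped between the genotypes, nor did Ak7, at 9.58 and 11.1 units in WT-WD and at 9.53 and 6.25 in KO-WD. Both KO-WD libraries were thus below both WT-WD libraries for 3 of the 8 (37.5%, against 18.4% of all genes). Ccdc153 and Tmem212, both used as ependymal markers, did overlap. Ccdc153 was at 12.5 and 17.4 units in WT-WD and at 15.3 and 7.74 units in KO-WD, and Tmem212 at 8.50 and 2.87 units in WT-WD and at 4.83 and 5.14 units in KO-WD. Pifo, at 2.73 and 2.87 units in WT-WD and 2.88 units in KO-WD replicate 1, had under 1 read in KO-WD replicate 2, where 3 reads would be 0.694 units. Mlf1 was highest in KO-WD replicate 1, at 4.13 units, against 0.823 to 1.58 units in the others. The 20 members not picked by the naming rule had log2 differences between -0.95 and 0.57, with a smallest unadjusted p of 0.156 in limma.

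The members were then set beside the choroid plexus, the secretory tissue in the ventricles, marked by the thyroid hormone carrier Ttr. Ttr was at 3212 and 1223 units in WT-WD and at 6440 and 3078 units in KO-WD, a 5.27-fold range. Over the same libraries the summed signal of the members without Cfap126 was 470.9 and 446.8 units in WT-WD and 525.2 and 485.7 units in KO-WD, a 1.18-fold range, and with Cfap126 it was 823.4 and 593.7 units in WT-WD and 781.2 and 716.2 units in KO-WD, a 1.39-fold range. Foxj1 covered a 1.56-fold range, and the choroid plexus list without Ttr, summed, a 2.15-fold range. Per 1000 units of Ttr the members without Cfap126 gave 146.6 and 365.4 units in WT-WD and 81.5 and 157.8 units in KO-WD. A sum evens out the variation of single genes, and 13 of the 36 members had a highest library over 2 times their lowest.

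**Figure D3:**
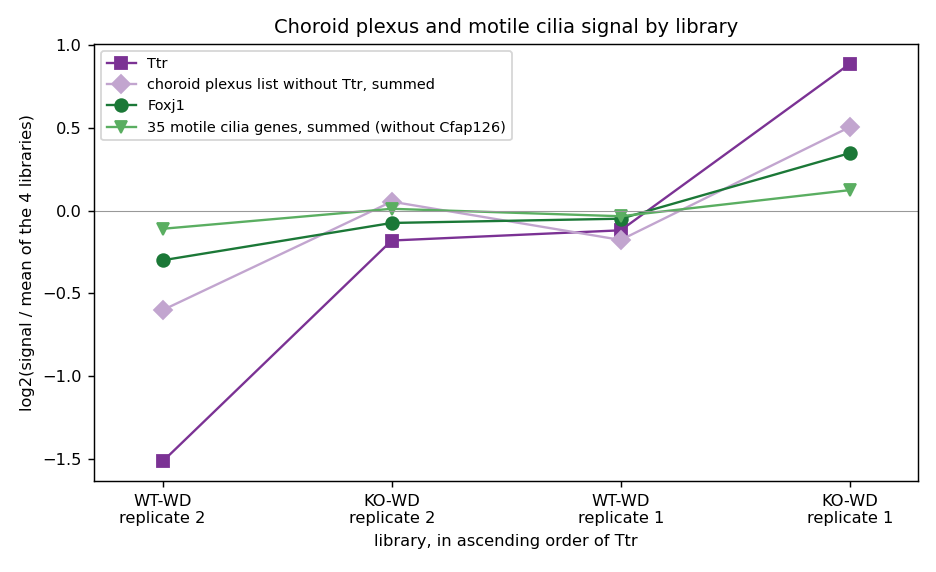
Signal in each of the 4 libraries relative to the mean of the 4, on a log2 scale, with libraries in ascending order of Ttr, for Ttr, the summed choroid plexus list without Ttr, Foxj1 and the summed motile cilia genes without Cfap126. Ttr spans a 5.27-fold range and the motile cilia sum a 1.18-fold range, while all 4 lines are lowest in WT-WD replicate 2 and highest in KO-WD replicate 1.

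The motile cilia sum without Cfap126 was lowest in WT-WD replicate 2 and highest in KO-WD replicate 1, as was Ttr. With Cfap126 the sum was highest in WT-WD replicate 1, and the sum of the 7 ependymal markers was highest in KO-WD replicate 1 but lowest in KO-WD replicate 2. Of the 36 members, 14 were highest in KO-WD replicate 1 (38.9%, against 23.8% of all genes tested) and 14 were lowest in WT-WD replicate 2 (38.9%, against 25%), and 7 were both. The full order of the 4 libraries by Ttr was shared by 6 members (16.7%, against 4.19% of all genes), namely Foxj1, Dnah6, Dnali1, Spag6l, Mlf1 and Fam183b. In the choroid plexus list 27 of 31 genes were highest in KO-WD replicate 1, 26 were lowest in WT-WD replicate 2, and 7, Ttr included, had the full order. With 4 libraries no correlation across samples is given, and these counts are descriptions.

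The choroid plexus list itself was higher in KO-WD in 28 of 31 genes (50.1% of all genes were), with a median log2 difference of 0.92. In limma none passed the threshold, and 16 of the 31 had an unadjusted p under 0.05, all higher (2.38% of all genes were). Both KO-WD libraries were above both WT-WD libraries for 19 of the 31 (61.3%, against 17.9% of all genes), where the motile cilia genes gave 19.4%. Of the 31, 27 shared their highest library and 26 their lowest, so these counts are not independent observations. Ttr itself overlapped between the genotypes (log2 difference 1.17, SE 0.80). Otx2, a transcription factor of this epithelium, was at 16.6 and 14.0 units in WT-WD and at 51.2 and 31.4 units in KO-WD. The part of the choroid plexus signal in the level of Foxj1 or of any other member was not tested.

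Of the 36 members 6 had several transcripts, whose log2 differences could be further from 0 than the gene's. The members had 43 transcripts, 1 of them non-coding, and 42 passed the filter. None passed an adjusted p of 0.05 in limma over 29293 transcripts, where the share called was 0.0%, and 3 had an unadjusted p under 0.05 (7.14%, against 5.69% of all transcripts), all of Rsph1 or Zmynd10. For Rsph1, NM_001364916 was at 3.52 and 4.04 units in WT-WD and at 23.3 and 21.4 units in KO-WD (log2 difference 2.29, SE 0.38, adjusted p = 0.816 in limma), while NM_025290 was at 9.03 and 9.89 units in WT-WD and at 4.4 and 2.33 in KO-WD. The former held 28.1% and 29.0% of the gene's signal in WT-WD and 84.1% and 90.2% in KO-WD.

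For Zmynd10, NM_001379079 was at 9.07 and 12.8 units in WT-WD and at 0.0820 and 0.103 units in KO-WD, which is under the value of 1 read (log2 difference -3.43, SE 0.48, adjusted p = 0.816 in limma). NM_001379080 was higher in KO-WD instead, at 4.94 and 6.21 units against 1.99 and 0.393 in WT-WD. Transcript values depend on how the authors' quantification divides reads that fit several transcripts. For Ccdc153 the division was 28.1% to NM_001360344 in each of 3 libraries and 87.8% in WT-WD replicate 2.

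**Figure D4:**
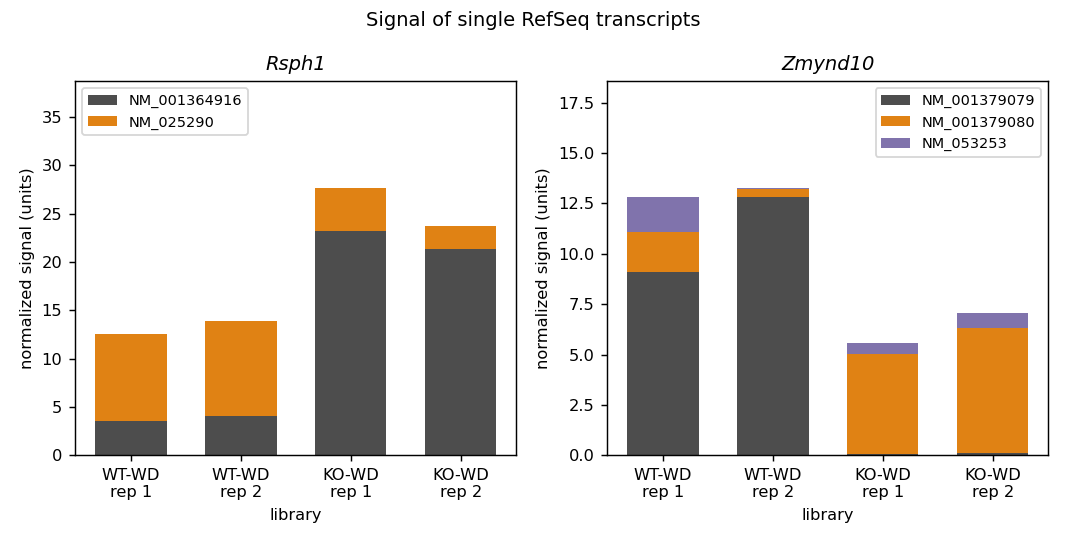
Normalized signal of single RefSeq transcripts of Rsph1 and Zmynd10 in each library, stacked to the gene's sum, with 1 bar per library. In both genes a different transcript holds most of the signal in the WT-WD and in the KO-WD libraries.

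Other motile cilia genes outside the members also fell on both sides. Of 99 listed, 86 were tested, 47 were higher and 39 lower in KO-WD, and the median log2 difference was 0.02. None passed the threshold in limma, and 3 of the 86 had an unadjusted p under 0.05, against 5.28% of all genes. Cfap58 was at 7.01 and 5.41 units in WT-WD and at 1.31 and 1.29 units in KO-WD (log2 difference -1.64, SE 0.35, adjusted p = 0.531). Vwa3b was at 27.5 and 23.8 units in WT-WD and at 38.6 and 43.2 units in KO-WD, and Ttc25, an outer arm docking gene, at 8.24 and 8.22 units in WT-WD and at 5.17 and 3.36 in KO-WD.

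Of 19 regulators of multiciliation 15 were tested, 9 higher and 6 lower in KO-WD, with none past the threshold in limma. Tfdp1 and Rfx4, 2 of the 15, had an unadjusted p under 0.05, against 5.28% of all genes. Rfx3, an X-box factor needed for ependymal cilia, was at 119.1 and 135.5 units in WT-WD and at 130 and 162.7 units in KO-WD, with overlap. Gmnc, which starts the multiciliated cell programme, was at 4.16 and 5.91 units in WT-WD and at 6.84 and 12.6 in KO-WD. Rfx4 was at 42.6 and 57.0 units in WT-WD and at 37.2 and 31.9 in KO-WD (log2 difference -0.50, SE 0.20).

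Ependymal genes that are not parts of the axoneme, many of them shared with astrocytes or neurons, were 9 higher and 11 lower of 20. The median was -0.05 and none passed the threshold in limma. An unadjusted p under 0.05 was found for 2 of the 20, against 5.28% of all genes. These were the water channel Aqp4, at 298.1 and 295.2 units in WT-WD and at 211.2 and 189.4 in KO-WD, and the imprinted proteolipid gene Nnat, at 717.0 and 780.3 units in WT-WD and at 605.1 and 481.6 in KO-WD.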

How the data were processed

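Per the labels' protocols, hippocampal total RNA was made into libraries with an Ion Total RNA-Seq kit. STAR, Partek and the build mm39 are named, without versions, per the submitters' processing notes. No source used here gives the annotation release, quantification model, normalization or use of strand. The authors deposited a normalized signal for the same 30108 RefSeq transcripts in each library. No value lay below 0.0001, which was treated as an offset and subtracted. Low values pile up at multiples of 1 read's value, but of those under 20 reads only 16.2% to 22.8% were whole within 0.02 read, so no count model was used.

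Names came from a RefSeq table of GRCm38.p6, which matched 30073 transcripts; 35 kept their identifier. Genes reaching 1 unit in 2 or more libraries were fitted on log2(value + 1) in limma 3.58.1 (R 4.3.3), with trend and robust moderation, 2 residual degrees of freedom and genotype alone. That scale understates changes of low genes. P-values are two-sided, Benjamini-Hochberg adjusted over all genes, and intervals are unadjusted. The fit was tested on simulated data with known changes, where false calls exceeded the nominal share when outlying gene variances were simulated. Lengths came from GENCODE M21 transcripts.

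The members, lists and tests were chosen with earlier results of these data known. Values in every library are given for Foxj1, the 12 members with the most signal and the 6 with the smallest p. Named outside this rule after their values were seen are Ccdc153, Tmem212, Dynlrb2, Pifo, Mlf1, Ak7, Tekt1, Hydin, Dnali1 and, per kilobase, Fam183b, Spag17 and Dnah11. Of other lists, the 3 genes with the smallest p and the 2 with the most signal could be named. Alternatives were other scalings, filters, pseudocounts and moderation, a replicate block, coding transcripts alone and leaving out each library.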

Additional observations from a re-analysis of the deposited data

How the results depend on the processing

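No motile cilia gene passed the threshold under any of the 13 alternatives, nor any of their transcripts under 12; the smallest adjusted p of a member was 0.290 in limma, for Pifo without KO-WD replicate 1. The median log2 difference of the members stayed between 0.02 and 0.15 when libraries were left out, lowest without KO-WD replicate 1. Over all genes, the 10 calls became 0 without trend or robust moderation (951 at an unadjusted p under 0.05), 1 with coding transcripts alone and 14 to 94 when a library was left out (19 with WT-WD replicate 1 left out, 94 and 82 with KO-WD replicates 1 and 2 left out in turn), and stayed at 10 under the other scalings, filters and pseudocounts; the cause was not tested. With the replicate number as a block the count was 47, with 0 members; same-numbered libraries deviated together by a correlation of only 0.0383 over genes, so the numbers were not taken as pairs. Of 208 values of the 16 members named by rule, 7 changed sign, all of them when a library was left out. With a library left out, the ranges were -0.54 to 0.72 for Cfap126, -0.23 to 0.0832 for Cfap65 and -0.28 to 0.12 for Ccdc39. They were -0.0787 to 0.91 for Dnah6 and -0.0730 to 0.29 for Ccdc40. With coding transcripts alone the log2 difference of Cfap126 was 1.31. Between 4 and 7 members had the library order of Ttr under the alternatives. The members' low signal, at a median of 36.7 estimated reads, limits what could be detected.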

Other observations

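Genes of intraflagellar transport and the primary cilium, the single non-beating cilium that neurons and astrocytes carry, were far better expressed than the motile cilia genes, with a median mean of 41.0 units. All 58 listed were tested, 39 were higher and 19 lower in KO-WD, and the median log2 difference was 0.06. None passed the threshold in limma, and 4 of the 58 had an unadjusted p under 0.05, all higher (2.38% of all genes were). Both KO-WD libraries were above both WT-WD libraries for 16 of the 58 (27.6%, against 17.9% of all genes) and below them for 4 (6.90%, against 18.4%). Tctn3, Tctn1 and Cc2d2a had the smallest p-values of the list. Tctn3 was at 31.7 and 36.5 units in WT-WD and at 47.8 and 50.2 units in KO-WD (log2 difference 0.51, SE 0.17, adjusted p = 0.892). Tctn1 was at 43.9 and 37.2 units in WT-WD and at 52.4 and 67.3 in KO-WD, and Cc2d2a at 54.1 and 42.1 units in WT-WD and at 64.4 and 109.6 in KO-WD. Bbs4, a subunit of the complex that moves membrane proteins in cilia, had the most signal of the list, at 955.0 and 1151 units in WT-WD and at 521.7 and 957.6 in KO-WD. Only 1 of the 58 genes had the library order of Ttr.

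Marker lists of other cell types are given for comparison. Of 12 oligodendrocyte genes 11 were lower in KO-WD (median log2 difference -0.40), as were 10 of 12 astrocyte genes (median -0.12). So were 9 of 12 meningeal genes (median -0.43) and 8 of 12 neuronal genes (median -0.07). None passed the threshold in limma. In the same order 7, 2, 1 and 0 of them had an unadjusted p under 0.05, against 5.28% of all genes. The summed meningeal list was highest in WT-WD replicate 2 and lowest in KO-WD replicate 2, with KO-WD replicate 1 above WT-WD replicate 1. The part of these cell types in the values of the motile cilia genes was not tested.

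Cfap300, a factor for dynein arm assembly in the longer list, was at 63.9 and 335.7 units in WT-WD and at 28.6 and 49.5 units in KO-WD, so that WT-WD replicate 2 alone stood far above the rest.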
